A study of Mus musculus with 24 samples.

Results

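The genes described here make up a module of 40 genes of the cell cycle and DNA replication, measured in liver and hindleg muscle of newborn mice whose mothers ate a diet with normal or low protein during pregnancy. The members were taken from a list of gene symbols, and each was read from 1 probe set, the brightest on average across the 12 arrays of a tissue among those annotated with that symbol alone. Of the 40 members 39 were measured this way, among 18193 genes in all. Ccnb1, a cyclin of mitotic entry, was named only on a probe set annotated with several symbols and was not analysed here. The list of symbols was drawn up with earlier results of these data known, although the selection itself sets no threshold on a measured value. No filter on low values was applied.

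Arrays of C57BL/6 mice on the day of birth, day 0, fell into 8 groups of 3 arrays, made up of 4 maternal diets in liver and the same 4 in hindleg muscle. The diets ran from day 1 of pregnancy until birth. They were normal protein with 20% casein (NP), normal protein with 20% casein and 1% taurine in the drinking water (NPtau), low protein with 8% casein (LP), and low protein with 8% casein and 1% taurine in the drinking water (LPtau). Taurine is a sulphur-containing amino sulphonic acid that is not built into proteins. The design therefore asks what low maternal protein does to gene expression in each tissue and whether taurine alters it. The labels call the 3 arrays of a group biological replicates but do not say whether the pups came from different litters, so the p-values cover the scatter among these arrays and may not cover that among litters.

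A dividing cell passes through a growth phase (G1), a phase of DNA synthesis (S), a second growth phase (G2) and mitosis (M). D-type cyclins with Cdk4 and E-type cyclins with Cdk2 drive the cell from G1 into S, in part by releasing E2F transcription factors, which switch on genes for DNA replication. The MCM helicase is loaded on replication origins in G1 by Cdc6 and Cdt1, and later genes, from cyclin A2 and cyclin B to the mitotic kinases and the spindle checkpoint, are switched on in G2 and mitosis. Cdkn1a and Cdkn1b encode inhibitors of the cyclin-dependent kinases. The liver of a newborn mouse still makes blood cells, and growing muscle adds nuclei from dividing precursor cells, so in both tissues these transcripts come from a mixture of cell types.

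Promoter sequence gives one view of the members that the list of symbols did not use. RefSeq windows of 300 bases, from 250 bases before to 50 bases after the annotated start (GRCm38.p6), were present for 33 of the 40 members, and 3 motifs were searched on both strands. The E2F motif was taken as TTTCGCGC, TTTGGCGC, TTTCCCGC or TTTGCCGC, the cell cycle homology region (CHR), through which genes of late phases are controlled, as TTTGAA, and the NF-Y motif as CCAAT. Overlapping matches were counted separately. Cdc6 and Mcm6 are shown as licensing genes with an E2F match, Cdk1, Cdc20 and Ccnb2 as genes of G2 and mitosis, and Rrm2 and Bub1 for their place among the liver values given later. Each stretch is the 150 bases upstream of the start, written 5′ to 3′ on the strand of the gene, and capitals mark every match to the 3 motifs on either strand. They lie at chr11:98908001-98908150 on the plus strand (Cdc6), chr1:128359706-128359855 on the minus strand (Mcm6), chr12:24708104-24708253 on the plus strand (Rrm2), chr10:69352913-69353062 on the minus strand (Cdk1), chr9:70421555-70421704 on the minus strand (Ccnb2), chr4:118437344-118437493 on the minus strand (Cdc20) and chr2:127831860-127832009 on the minus strand (Bub1).
Cdc6: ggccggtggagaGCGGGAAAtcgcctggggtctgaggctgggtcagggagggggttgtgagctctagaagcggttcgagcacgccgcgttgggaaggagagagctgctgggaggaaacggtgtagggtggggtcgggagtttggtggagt
Mcm6: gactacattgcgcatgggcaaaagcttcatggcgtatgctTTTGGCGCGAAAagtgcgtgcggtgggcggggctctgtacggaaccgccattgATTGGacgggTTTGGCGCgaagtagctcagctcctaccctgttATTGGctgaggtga
Rrm2: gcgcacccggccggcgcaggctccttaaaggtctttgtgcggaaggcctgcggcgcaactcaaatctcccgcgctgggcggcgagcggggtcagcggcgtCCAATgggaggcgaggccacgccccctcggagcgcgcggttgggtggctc
Cdk1: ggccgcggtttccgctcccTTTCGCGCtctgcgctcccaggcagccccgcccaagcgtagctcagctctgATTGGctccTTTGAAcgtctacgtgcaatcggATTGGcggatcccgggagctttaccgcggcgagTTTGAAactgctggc
Ccnb2: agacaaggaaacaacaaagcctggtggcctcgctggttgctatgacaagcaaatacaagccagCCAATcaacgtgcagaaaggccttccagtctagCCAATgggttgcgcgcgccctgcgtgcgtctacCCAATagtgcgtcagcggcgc
Cdc20: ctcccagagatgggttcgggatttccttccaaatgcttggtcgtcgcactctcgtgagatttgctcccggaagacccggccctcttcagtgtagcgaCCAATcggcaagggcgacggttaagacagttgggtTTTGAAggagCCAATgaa
Bub1: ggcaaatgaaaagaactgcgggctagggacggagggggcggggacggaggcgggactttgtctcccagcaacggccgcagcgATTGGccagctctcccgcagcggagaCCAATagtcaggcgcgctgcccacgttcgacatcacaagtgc

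The E2F motif was found for 8 of the 33 members (24.2%), against 2.26% of the 32851 RefSeq windows of the same length. Of those 8, 6 were among the 9 licensing genes with a window. A member counted if any of its windows matched, so members with several windows had more chances than a single window. CHR letters were found for 12 members (36.4% against 17.9% of all windows). Among them were 4 of 5 genes of G2 and mitotic entry and 6 of 8 genes of mitosis. CCAAT was present for 25 members (75.8% against 37.4% of all windows). In the stretches shown, Cdc6 held 1 E2F match and Mcm6 3, of which 2 overlap. Cdk1 held 2 CHR and 2 CCAAT matches and 1 E2F match, Cdc20 held 1 CHR and 2 CCAAT matches, and Ccnb2 held 3 CCAAT matches. The CHR matches of Ccnb2 begin at bases -167 and 5 from the start, outside the stretch shown. The median liver difference of low against normal protein, described later, was -0.54 for the measured members with CHR letters and -0.37 for those with a window but no match, and -0.38 and -0.52 with and without the E2F motif. A match describes letters in a window and no more.

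All values are log2 probe set intensities, and differences are between group means on that scale with their standard error (SE) from limma. A gene is said to have risen or fallen where its adjusted p in limma, by the Benjamini-Hochberg method over all 18193 genes of the contrast, was under 0.05. Groups are called apart where every array of one lay beyond every array of the other. Liver arrays held high levels of hepatocyte transcripts (Alb 14.85 to 15.01) and also of red cell precursor transcripts (Gata1 8.74 to 9.85), and muscle arrays held high levels of fibre transcripts (Acta1 14.20 to 14.91) with Gata1 at 3.81 to 4.41. Among the muscle arrays, LP replicate 1 and LPtau replicate 1 stood somewhat apart, with a median correlation to the other arrays of the tissue, across genes, of 0.957 and 0.966 against 0.979 or more for the remaining 10. By Xist and Y-linked transcripts the pups were female on 12 of 24 arrays, with 1 female of 3 in NP and 2 of 3 in LP in either tissue. Levels of 2 members in liver (Tyms and Foxm1) and 4 in muscle (Mcm10, Cdc6, Cdc45 and Tyms) lay below the median gene level of the tissue.

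In liver the cell cycle genes were lower under low protein. Of the 39 measured members 38 had an LP minus NP difference below 0, with a median of -0.45, whereas 41.5% of all genes were below 0 and their median was 0.05. Ccne2, which encodes cyclin E2, fell to 0.331 times its NP level and alone passed the test: 1 of 39 members (2.56%) was called, against 2.34% of all genes, which is close to that background. At an unadjusted p under 0.05 there were 13 members (33.3%) against 22.7% of all genes. The LP arrays lay wholly below the NP arrays for 23 members (59%), against 10.9% of all genes. Leaving out any 1 array of the NP or LP groups kept the median between -0.54 and -0.43.

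**Figure D1:**
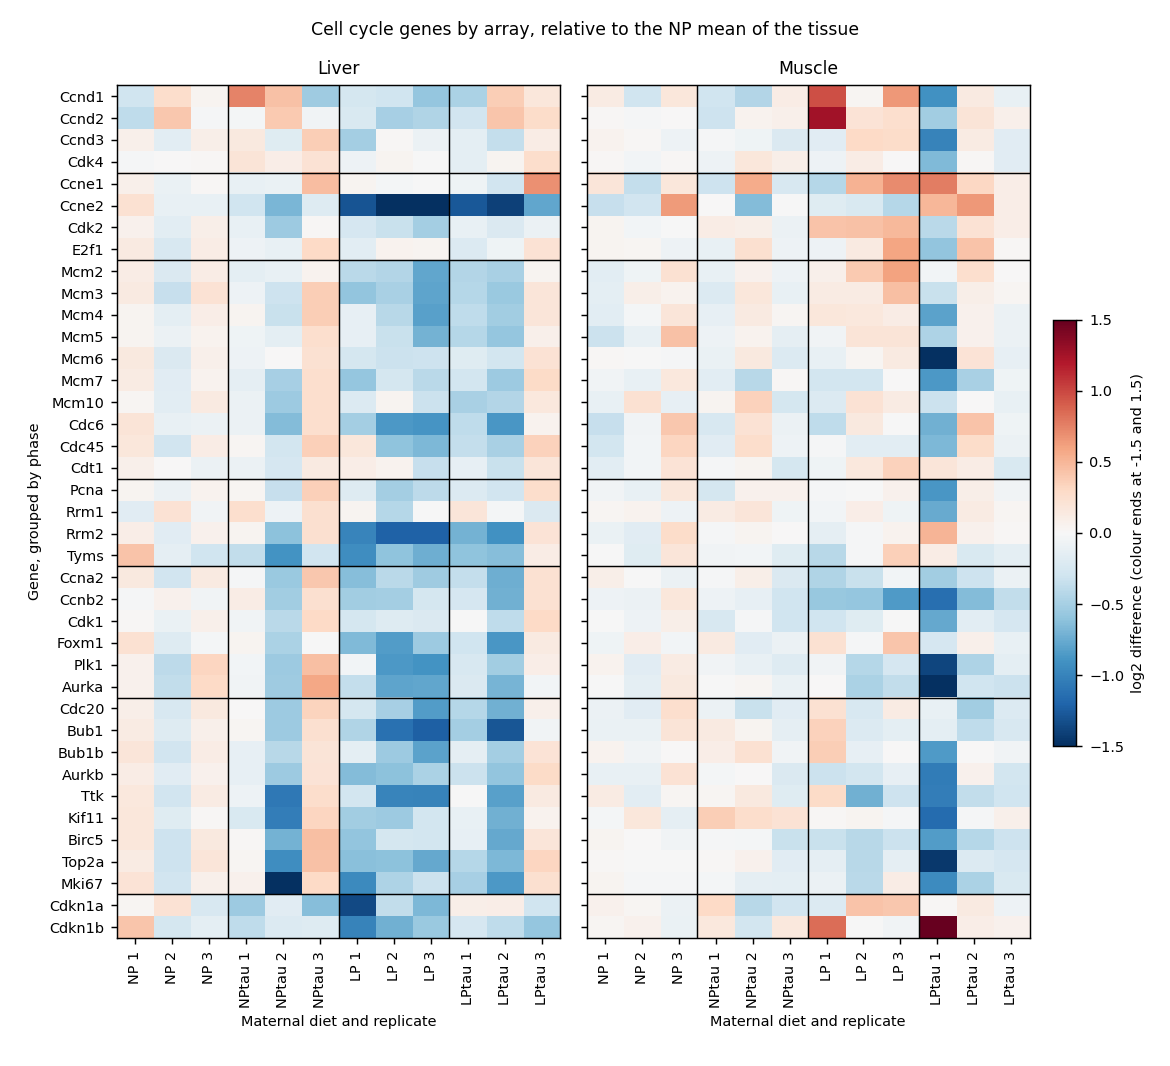
Each array's log2 value minus the NP mean of its tissue (colour scale) for the 39 measured genes (rows, grouped by phase) in the 12 liver and the 12 muscle arrays (columns, by maternal diet and replicate). Most liver LP arrays are below the NP mean (35, 34 and 38 of 39 genes in replicates 1 to 3), and muscle LPtau replicate 1 holds the lowest value of 29 of the 39 genes.

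Among the G1 genes, the liver differences ran from -0.39 to -0.01, with a median of -0.29, and all 4 were below 0. Ccnd2, which encodes cyclin D2, read 8.49, 9.27 and 8.85 in NP, 8.85, 9.26 and 8.82 in NPtau, 8.64, 8.38 and 8.42 in LP, and 8.58, 9.29 and 9.14 in LPtau. The NP and LP arrays overlapped, and the difference was -0.39 (SE 0.22, adjusted p = 0.319, limma). Ccnd1 and Ccnd3, the other D-type cyclins, had differences of -0.38 and -0.19, and Cdk4, their kinase partner, had one of -0.01.

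The genes of the G1 to S transition differed among themselves. Ccne2 read 8.38, 8.04 and 8.04 in NP, 7.85, 7.47 and 7.97 in NPtau, 6.86, 6.48 and 6.35 in LP, and 6.88, 6.75 and 7.38 in LPtau. Both low protein groups lay below every array of both normal protein groups. It fell by 1.59 in LP against NP (SE 0.20, adjusted p = 0.00786, limma). Ccne1, which encodes the closely related cyclin E1, read 8.71, 8.53 and 8.64 in NP and 8.67, 8.60 and 8.62 in LP, a difference of 0.01 (SE 0.22), with its LP arrays inside the NP range. Its LPtau arrays spread widely, from 8.34 to 9.31. Cdk2, the kinase that both E-type cyclins bind, read 9.05, 8.82 and 9.08 in NP, 8.87, 8.44 and 9.0 in NPtau, 8.73, 8.65 and 8.48 in LP, and 8.87, 8.77 and 8.89 in LPtau. Its LP arrays lay below NP (-0.37, SE 0.15, adjusted p = 0.173, limma), but its second probe set gave 0.29. E2f1 differed by -0.02.

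Origin licensing and firing, the largest list, was below 0 for 10 of 10 genes, with a median of -0.40 and groups apart for 6. Mcm2, a helicase subunit, read 10.45, 10.12 and 10.45 in NP, 10.19, 10.23 and 10.38 in NPtau, 9.93, 9.89 and 9.56 in LP, and 9.89, 9.85 and 10.37 in LPtau. The LP arrays lay below the NP arrays (-0.54, SE 0.16, adjusted p = 0.0969, limma), and its second probe set gave -0.54 as well. Cdc6, the loader of the helicase, read 9.09, 8.78 and 8.81 in NP, 8.80, 8.24 and 9.14 in NPtau, 8.38, 8.03 and 8.01 in LP, and 8.51, 8.02 and 8.94 in LPtau. Here too LP lay below NP (-0.75, SE 0.26, adjusted p = 0.128, limma), while LPtau overlapped NP. The remaining subunits Mcm3 to Mcm7 had differences of -0.62 to -0.30, with groups apart for all but Mcm4. Mcm10 (-0.17), Cdc45 (-0.37), a partner of the active helicase, and Cdt1 (-0.07) had overlapping groups.

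S phase synthesis was below 0 for 4 of 4 genes, with a median of -0.56. Rrm2, the regulated subunit of the ribonucleotide reductase that makes deoxyribonucleotides, read 11.94, 11.67 and 11.91 in NP, 11.89, 11.22 and 12.08 in NPtau, 10.85, 10.63 and 10.63 in LP, and 11.14, 10.94 and 12.05 in LPtau. Every LP array lay below every array of the other 3 diets, and the LP level was 0.454 times that of NP (-1.14, SE 0.28, adjusted p = 0.0565, limma). Its 3 probe sets gave differences of -1.19 to -0.86. Tyms, thymidylate synthase, was dim, with 5.92, 5.36 and 5.20 in NP, 5.12, 4.60 and 5.21 in NPtau, 4.56, 4.89 and 4.76 in LP, and 4.89, 4.86 and 5.60 in LPtau. Its LP arrays were apart from NP (-0.76, SE 0.25, adjusted p = 0.116, limma) but not from NPtau, and its 4 probe sets ranged from -0.76 to 0.03. Pcna, the sliding clamp of the replicative polymerases, read 12.61, 12.49 and 12.63 in NP, 12.61, 12.23 and 12.93 in NPtau, 12.39, 12.07 and 12.18 in LP, and 12.37, 12.29 and 12.84 in LPtau. The groups were apart, by a smaller amount (-0.36, SE 0.19, adjusted p = 0.272, limma). Rrm1, the partner subunit of Rrm2, had overlapping groups and a difference of -0.13.

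**Figure D2:**
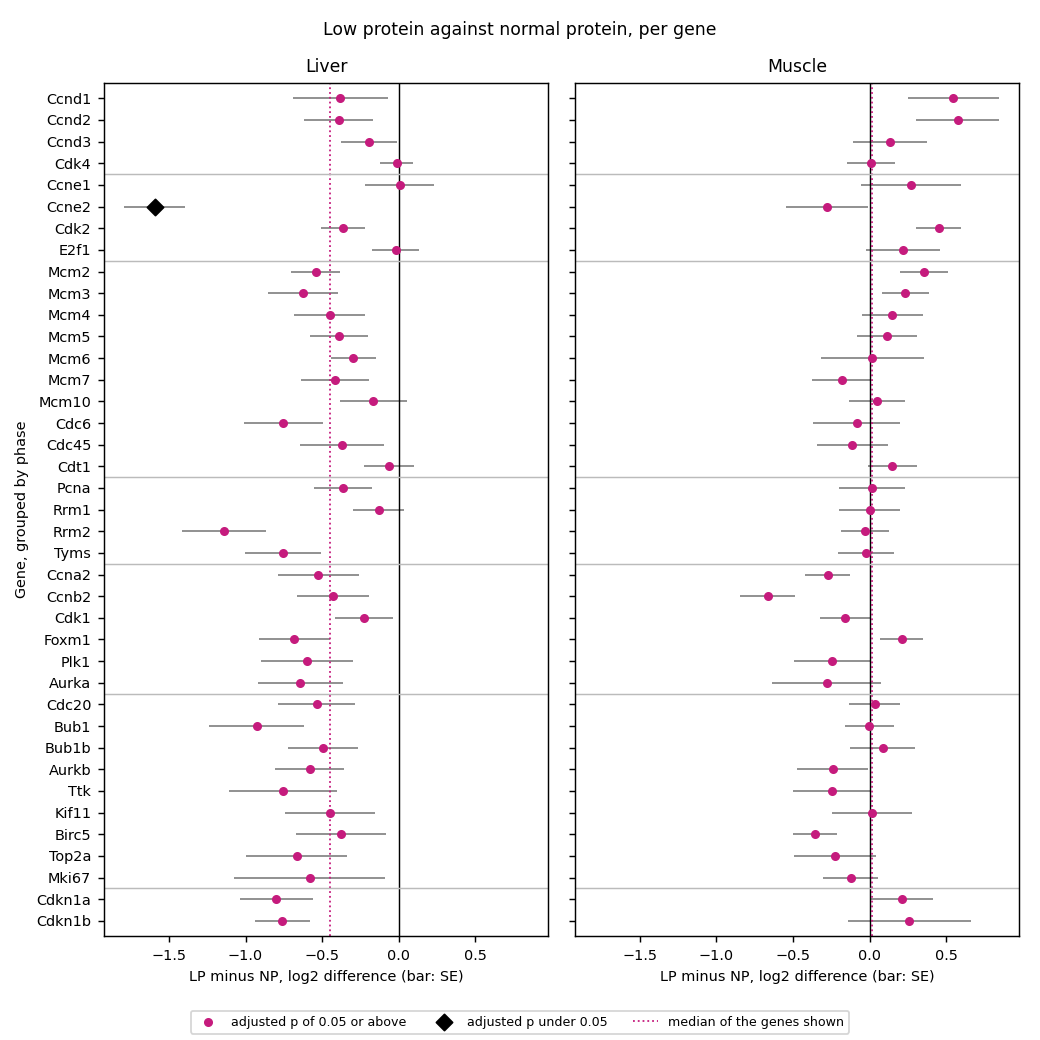
LP minus NP log2 difference (horizontal axis, bar: SE of the limma fit) for each of the 39 genes, grouped by phase, in liver (left) and muscle (right), with the diamond for an adjusted p under 0.05 and the dotted line for the median of the genes. The liver values lie to the left of 0 for 38 of 39 genes around a median of -0.45, and the muscle values lie on both sides around a median of 0.01.

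Genes of G2 and mitotic entry were below 0 for 6 of 6 in liver, with a median of -0.56 and groups apart for 4. Foxm1, a transcription factor of the late phases, read 6.90, 6.48 and 6.65 in NP, 6.72, 6.20 and 6.67 in NPtau, 6.01, 5.83 and 6.14 in LP, and 6.37, 5.80 and 6.81 in LPtau. Its LP arrays lay below all NP and NPtau arrays (-0.68, SE 0.23, adjusted p = 0.130, limma), but its 4 probe sets ranged from -0.68 to 0.06. Aurka, a kinase of the spindle poles, read 9.29, 8.86 and 9.53 in NP, 9.18, 8.69 and 9.80 in NPtau, 8.87, 8.44 and 8.45 in LP, and 9.01, 8.53 and 9.18 in LPtau. The highest LP array lay just above the lowest NP array (-0.64, SE 0.28, adjusted p = 0.203, limma), and its second probe set gave 0.15. Ccna2 (-0.52), Ccnb2 (-0.43) and Cdk1 (-0.23), the cyclins and the kinase that drive entry into mitosis, were apart, and Plk1 (-0.60), a further mitotic kinase, was not.

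The 9 genes of mitosis and the spindle checkpoint were all below 0, with a median of -0.58 and groups apart for 6. Bub1, a checkpoint kinase at the kinetochore, read 8.96, 8.64 and 8.91 in NP, 8.86, 8.29 and 9.07 in NPtau, 8.39, 7.72 and 7.62 in LP, and 8.33, 7.55 and 8.79 in LPtau. LP lay below NP (-0.93, SE 0.31, adjusted p = 0.124, limma), and its second probe set gave -0.59. Aurkb, a kinase of the inner centromere, read 8.44, 8.16 and 8.40 in NP, 8.21, 7.79 and 8.54 in NPtau, 7.68, 7.72 and 7.86 in LP, and 8.01, 7.74 and 8.62 in LPtau. It was apart by -0.58 (SE 0.23, adjusted p = 0.165, limma). Mki67, the widely used proliferation marker, read 12.52, 12.03 and 12.39 in NP, 12.37, 10.38 and 12.61 in NPtau, 11.36, 11.85 and 11.98 in LP, and 11.82, 11.45 and 12.56 in LPtau. Its LP arrays were apart from NP, but NPtau replicate 2 was the lowest liver array of all, and the SE of 0.50 was wide beside a difference of -0.58. Cdc20 (-0.54), Kif11 (-0.45) and Top2a (-0.67) were apart, and Bub1b (-0.50), Ttk (-0.75) and Birc5 (-0.38) overlapped.

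The inhibitors were also lower in LP, both with groups apart. Cdkn1b read 9.70, 9.01 and 9.14 in NP, 8.90, 9.08 and 9.09 in NPtau, 8.28, 8.56 and 8.72 in LP, and 9.03, 8.90 and 8.70 in LPtau. Every LP array lay below every NP and NPtau array (-0.76, SE 0.18, adjusted p = 0.0536, limma), but its second probe set gave 0.10. Cdkn1a, a target of the tumour suppressor p53, read 9.91, 10.09 and 9.63 in NP, 9.33, 9.71 and 9.23 in NPtau, 8.52, 9.51 and 9.20 in LP, and 9.97, 9.97 and 9.58 in LPtau. The LP arrays lay below NP (-0.80, SE 0.24, adjusted p = 0.0948, limma) and below all LPtau arrays. Beyond these genes, probe sets of one gene often differed: 31 members had more than 1 probe set, and in liver LP minus NP all had the same sign for 19 and both signs for 12.

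**Figure D3:**
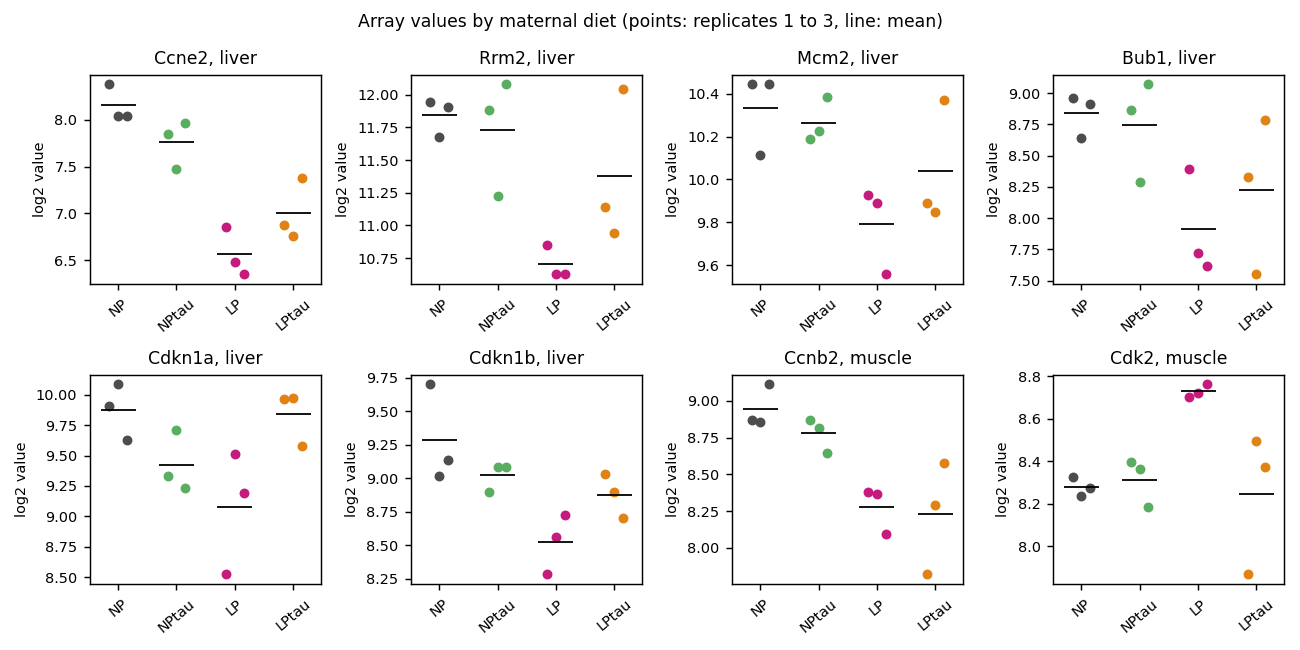
Log2 value per array (points, replicates 1 to 3) and group mean (lines) by maternal diet for 6 genes in liver and 2 in muscle, each panel with its own vertical range. In liver, Ccne2 in LP (6.35 to 6.86) lies below NP (8.04 to 8.38), and in muscle Ccnb2 in LP (8.09 to 8.38) lies below NP (8.86 to 9.11).

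Other genes of the same pathways, 160 measured genes in lists chosen with earlier results known, were also mostly below 0 in liver. There 123 of 160 were below 0 in LP against NP, against 41.5% of all genes, and 7 fell and 1 rose, against 2.34% of all genes called. Ect2, which starts the cleavage furrow, fell by 1.46 (SE 0.28, adjusted p = 0.0303, limma), and E2f7, an atypical E2F that represses its targets, fell by 1.46 (SE 0.32, adjusted p = 0.0437, limma). Dck, which salvages deoxynucleosides, fell by 1.35, and Cep55, a protein of the final cut between daughter cells, fell by 1.30. Kif18a, a kinesin of chromosome alignment, fell by 0.99, Rad21, a cohesin subunit, fell by 0.94, and Lin54, a subunit of the complex that binds CHR letters, fell by 0.87. The gene that rose was Shmt1, a cytosolic enzyme of one-carbon supply for thymidylate (1.49, SE 0.24, adjusted p = 0.0175, limma). By list, 38 of 39 kinetochore, spindle and cytokinesis genes were below 0 (median -0.43), as were 13 of 13 condensin and cohesin genes (median -0.48). So were 14 of 18 genes of the anaphase-promoting complex and mitotic phosphatases (median -0.26) and 17 of 21 polymerase and fork genes (median -0.23). Lists with a median nearer to 0 were origin recognition and GINS complex genes, with 9 of 16 below 0 (median -0.05), nucleotide supply, with 6 of 11 (median -0.00), and other D and late G1 regulators, with 5 of 9 (median -0.02). The others were E2F, pocket protein and MYB regulators, with 12 of 18 (median -0.11), and other brakes on the cycle, with 9 of 15 (median -0.12). The mean of the E2F list lay further from 0 than its median, at -0.35, -0.32 and -0.29 on LP replicates 1 to 3, relative to NP. Among genes that did not pass, Pola1, the catalytic subunit of the polymerase that starts DNA synthesis, was at -0.71 (SE 0.20, adjusted p = 0.0854, limma) and Cdc27, a subunit of the anaphase-promoting complex, at -0.56 (SE 0.13, adjusted p = 0.0543, limma). Mcmbp, which binds MCM subunits, and Mycn, a growth-promoting transcription factor, were each at 0.27 (SE 0.11).

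Some lists of blood cell and vessel markers were also lower on the liver LP arrays, and others were not. The mean of the members, as a difference from the NP mean, was -0.43, -0.50 and -0.57 on the 3 LP arrays, and that of 22 erythroid markers was -0.70, -0.33 and -0.13 on the same arrays. For 13 lymphocyte markers it was -0.81, -0.66 and -0.93, and for 14 endothelial markers -0.55, -0.43 and -0.35. Hepatocyte markers (14 genes) stayed near the NP level, at 0.01, -0.06 and -0.06. In LP against NP, 20 of 22 erythroid markers were below 0 and 0 were called by limma, while 5 of 13 lymphocyte markers and 4 of 14 endothelial markers fell. Of the other lists, 12 of 13 granulocyte, 11 of 14 fibroblast (1 fell), 10 of 14 hepatocyte, 7 of 12 macrophage (1 rose) and 5 of 10 megakaryocyte markers were below 0. Over all genes 41.5% were below 0 and 2.34% were called. NPtau replicate 2, a normal protein array, had a member mean of -0.43 with an erythroid mean of -0.80, and LPtau replicate 3 had 0.11 with 0.13. On that NPtau array lymphocyte markers were at -0.08, endothelial markers at -0.19 and fibroblast markers at 0.44. On LPtau replicate 2 the members were at -0.50, with erythroid markers at -0.74, lymphocyte markers at -0.59, endothelial markers at -0.06 and fibroblast markers at 0.45. Within LP the array with the lowest member mean, replicate 3, had the highest erythroid mean, which lay inside the NP range. On LP replicates 1 to 3 granulocyte markers were at -0.13, -0.57 and -0.99, and fibroblast markers at -0.56, -0.25 and -0.35. Macrophage markers were at 0.01, -0.18 and -0.18, and megakaryocyte markers at 0.21, -0.03 and -0.58. Over the liver arrays of all diets the member mean was -0.06 in males and -0.35 in females. With sex in the model the LP minus NP median was -0.37, 35 of 39 members were below 0, and Ccne2 was again the 1 gene called. In these bulk samples fewer cells of a type and less RNA per cell cannot be told apart, and the part of cell makeup in the differences was not tested.

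**Figure D4:**
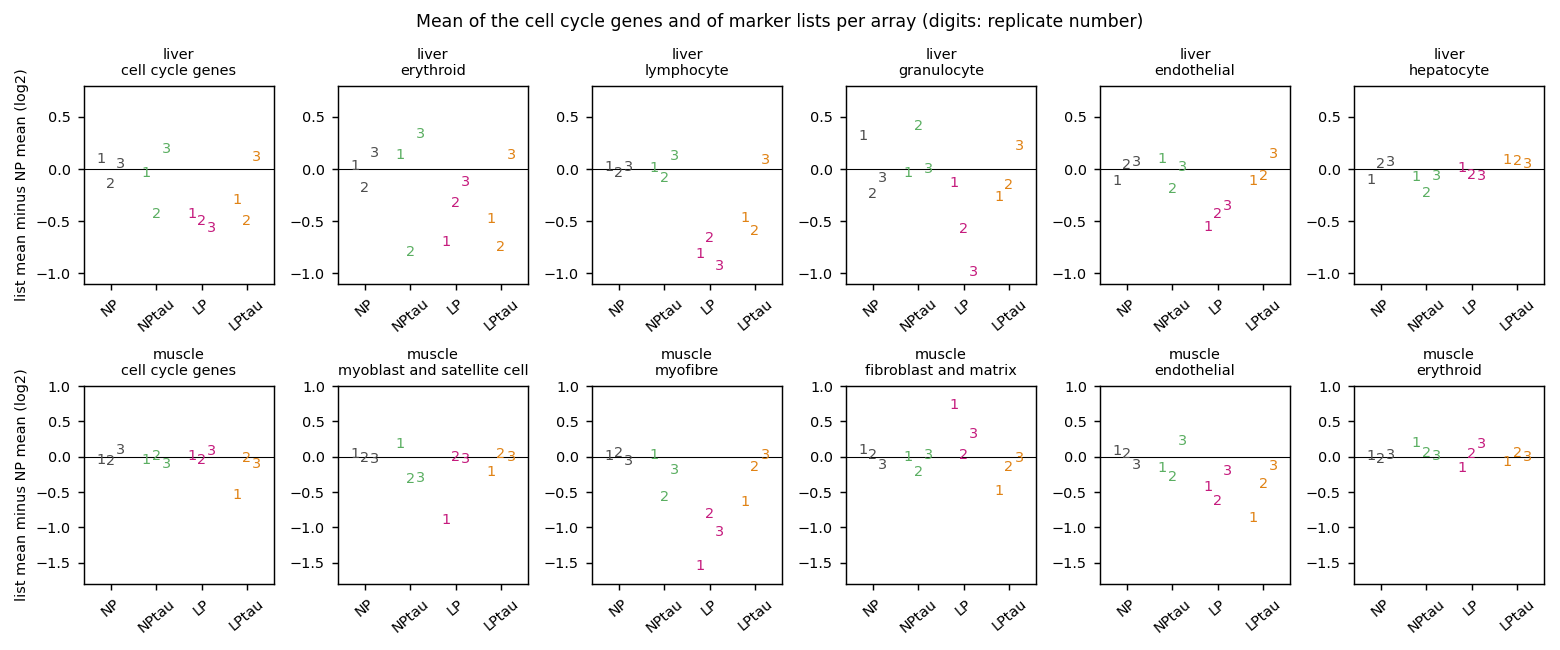
Mean log2 difference from the NP mean per array (vertical axis, digits: replicate number) by maternal diet, for the 39 cell cycle genes and 5 marker lists in liver (top) and muscle (bottom). In liver, NPtau replicate 2 is low in both the cell cycle genes (-0.43) and the erythroid markers (-0.80). LP replicate 3, with the lowest mean of the cell cycle genes (-0.57), has an erythroid mean of -0.13, inside the NP range. Its other means are -0.93 (lymphocyte), -0.99 (granulocyte), -0.35 (endothelial) and -0.06 (hepatocyte).

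Taurine was given with either protein level. In liver the LPtau minus LP difference was below 0 for 2 of 39 members (Mcm10 and Cdt1), against 51.6% of all genes, with a median of 0.24 against -0.01, but limma called 0 members (0.066% of all genes) and 4 (10.3%) had an unadjusted p under 0.05, against 8.48%. This contrast shares the LP arrays with LP minus NP. Without LPtau replicate 3, 13 of 39 members were below 0 and the median was 0.08. Cdkn1a, whose values are given above, had the smallest p (0.76, SE 0.24, adjusted p = 0.400, limma), with all LPtau arrays above all LP arrays. Rrm2 differed by 0.67 (SE 0.28, adjusted p = 0.542, limma), its LPtau arrays also lying above LP. LPtau arrays lay wholly above LP for 3 members (7.69%), close to the 6.77% of all genes, and wholly below for 0 (7.01%). Ccnd2 gave 0.53 and Ccne2 gave 0.44.

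With normal protein the liver members stayed nearer to NP. The NPtau minus NP median was -0.07, and 27 of 39 members (69.2%) were below 0 against 41.9% of all genes. That median was 0.11 without NPtau replicate 2, -0.27 without NPtau replicate 3 and 0.05 with array weights, so its direction turned with the arrays used. By limma 0 members were called, as were 0% of all genes, and 0 had an unadjusted p under 0.05 against 2.75%. Tyms differed by -0.52 (SE 0.25, adjusted p = 0.995, limma), and Ccne2 by -0.39 (SE 0.20, adjusted p = 0.995, limma), its NPtau arrays lying below its NP arrays. Ccne2 was the 1 member (2.56%) with NPtau wholly below NP, close to the 2.4% of all genes. LPtau set against NP had 35 of 39 members (89.7%) below 0 (39.1% of all genes), with a median of -0.24, 0 called by limma (0%) and 2 with an unadjusted p under 0.05 (6.77% of all genes). Without LPtau replicate 3 the median was -0.42, and without LPtau replicate 2 it was -0.07 with 28 members below 0. Ccne2 was again the most distant (-1.15, SE 0.20, adjusted p = 0.247, limma). LPtau against NPtau had 30 members (76.9%) below 0 (46.9% of all genes), a median of -0.14, 0 called by limma (0%) and 1 with an unadjusted p under 0.05 (4.74%). This median was -0.33 without NPtau replicate 2 and also with array weights, and -0.03 without NPtau replicate 3.

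The interaction of protein and taurine in liver, which asks whether the protein difference changed with taurine, had 0 members called by limma (0% of all genes) and 4 with an unadjusted p under 0.05 (8.46%). They were Cdkn1a (1.22, SE 0.34, adjusted p = 0.446, limma), Ccne2 (0.83), Tyms (0.90) and Cdkn1b (0.62). Averaged over taurine, the protein difference was called for 1 member, Ccne2 (-1.18, SE 0.14, adjusted p = 0.0101, limma), against 1.48% of all genes, and 11 (28.2%) had an unadjusted p under 0.05 against 18.1%. By group mean, LP was the lowest of the 4 liver diets for 36 of 39 members, and LPtau lay between LP and NP for 33. The shares of all genes with these orders were not counted. Relative to NP, the member means on LPtau replicates 1 to 3 were uneven, at -0.30, -0.50 and 0.11. Replicate 2 lay inside the LP range of -0.57 to -0.43.

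In muscle the members had no common direction under low protein. The LP minus NP median was 0.01 against -0.01 over all genes, and 18 of 39 members (46.2%) were below 0 against 52.4%. By limma 0 members were called (0.126% of all genes), and 4 (10.3%) had an unadjusted p under 0.05 against 10.8%. LP arrays lay wholly below NP for 4 members (10.3%), Ccnb2, Aurkb, Birc5 and Top2a, close to the 11.6% of all genes. They lay wholly above NP for 3 (7.69%), close to the 7.99% of all genes. By phase the medians ran from 0.34 in G1, where 0 of 4 genes were below 0, through 0.24 at the G1 to S transition and 0.08 in licensing to -0.26 in G2 and mitotic entry (5 of 6 below 0) and -0.13 in mitosis (6 of 9).

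Ccnb2, a B-type cyclin, read 8.87, 8.86 and 9.11 in NP, 8.87, 8.82 and 8.65 in NPtau, 8.38, 8.37 and 8.09 in LP, and 7.82, 8.29 and 8.58 in LPtau. Both low protein groups lay below both normal protein groups, with an LP minus NP difference of -0.67 (SE 0.18, adjusted p = 0.170, limma). In liver its NP arrays read 10.41 to 10.53 and its LP arrays 9.95 to 10.21, apart as well. Cdk2 went the other way, with 8.32, 8.24 and 8.28 in NP, 8.39, 8.36 and 8.19 in NPtau, 8.70, 8.72 and 8.76 in LP, and 7.87, 8.49 and 8.37 in LPtau. Its LP arrays lay above all other groups (0.45, SE 0.15, adjusted p = 0.276, limma), but the second probe set gave -0.14. Birc5, which encodes survivin of the centromere complex, read 8.67, 8.64 and 8.58 in NP, 8.61, 8.60 and 8.30 in NPtau, 8.30, 8.22 and 8.31 in LP, and 7.80, 8.21 and 8.32 in LPtau (LP minus NP -0.36, SE 0.14, adjusted p = 0.398, limma). Its NP and LP arrays were apart.

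Mcm2 in muscle read 8.51, 8.61 and 8.89 in NP, 8.56, 8.73 and 8.59 in NPtau, 8.74, 9.06 and 9.27 in LP, and 8.62, 8.93 and 8.67 in LPtau. The NP and LP arrays overlapped (0.36, SE 0.16, adjusted p = 0.453, limma), and its second probe set gave 0.24. Among the D-type cyclins, Ccnd1 read 9.38, 8.96 and 9.42 in NP, 8.96, 8.81 and 9.37 in NPtau, 10.22, 9.28 and 9.90 in LP, and 8.35, 9.39 and 9.15 in LPtau. It overlapped between NP and LP (0.55, SE 0.30, adjusted p = 0.583, limma), whereas Ccnd2 was apart and higher in LP (0.57, SE 0.27, adjusted p = 0.491, limma) with 9.90 to 9.95 in NP and 10.14 to 11.18 in LP. For Ccnd1 and Ccnd2 the highest array was LP replicate 1, one of the arrays that stood apart. Mki67 read 10.14, 10.08 and 10.08 in NP, 10.07, 9.97 and 9.96 in NPtau, 10.01, 9.70 and 10.21 in LP, and 9.16, 9.63 and 9.87 in LPtau, with overlap between NP and LP. Pcna read 10.89, 10.83 and 11.11 in NP, 10.68 to 11.01 in NPtau, 10.93, 10.94 and 11.01 in LP, and 10.07, 11.03 and 10.90 in LPtau. LPtau replicate 1 lay below the other 11 arrays, and the LP minus NP difference was 0.02 (SE 0.22).

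The genes with the lowest liver differences, Ccne2 and Rrm2, had overlapping NP and LP arrays in muscle. Ccne2 there read 6.16, 6.22 and 7.14 in NP, 6.51, 5.86 and 6.50 in NPtau, 6.32, 6.28 and 6.08 in LP, and 7.0, 7.15 and 6.61 in LPtau. Rrm2 read 8.78, 8.71 and 9.15 in NP, 8.86, 8.92 and 8.89 in NPtau, 8.75, 8.87 and 8.94 in LP, and 9.39, 8.95 and 8.90 in LPtau. The LP minus NP differences were -0.28 (SE 0.27) for Ccne2 and -0.03 (SE 0.16) for Rrm2. Of the inhibitors, Cdkn1a read 11.21, 11.18 and 11.07 in NP, 11.45, 10.73 and 10.87 in NPtau, 10.95, 11.58 and 11.55 in LP, and 11.17, 11.28 and 11.08 in LPtau. Cdkn1b read 8.14, 8.17 and 8.01 in NP, 8.27, 7.83 and 8.26 in NPtau, 8.94, 8.10 and 8.06 in LP, and 9.86, 8.21 and 8.18 in LPtau. Both overlapped between NP and LP (0.21, SE 0.20 and 0.26, SE 0.40), and replicate 1 was the highest of its group for Cdkn1b in LP and in LPtau.

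Low protein with taurine in muscle gave lower values, largely on 1 array. This contrast shares the NP arrays with LP minus NP. LPtau minus NP was below 0 for 32 of 39 members (82.1%) against 50.5% of all genes, with a median of -0.27, and 9 (23.1%) had an unadjusted p under 0.05 against 3.75%, though limma called 0 (0%). The LPtau arrays lay wholly below the NP arrays for 9 members (23.1%) against 5.43% of all genes; these were Ccna2, Ccnb2, Cdk1, Aurka, Bub1, Ttk, Birc5, Top2a and Mki67, all of G2 or mitosis. Differences were -0.72 for Ccnb2 (SE 0.18), -0.52 for Birc5 (SE 0.14) and -0.55 for Mki67 (SE 0.18), each with an adjusted p of 0.840 in limma. The member means were -0.54, -0.02 and -0.11 on LPtau replicates 1 to 3. Without replicate 1 the median was -0.02 and 22 of 39 were below 0. The count with groups apart was then 10, but leaving out an array can never lower that count. For genes of G2 and mitotic entry the means on the 3 arrays were -1.0, -0.30 and -0.21, and for mitosis -0.84, -0.26 and -0.20.

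LPtau minus LP in muscle was below 0 for 35 members (89.7%) against 47% of all genes, with a median of -0.28, or -0.08 without LPtau replicate 1. By limma 0 were called (0.022% of all genes), and 5 had an unadjusted p under 0.05 against 12.9%. Cdk2 (-0.48, SE 0.15, adjusted p = 0.229, limma) and Ccnd1 (-0.84, SE 0.30, adjusted p = 0.293, limma) had the smallest p. The LPtau arrays of Cdk2 lay below its LP arrays, and those of Ccnd1 overlapped. Ccne2 was higher in LPtau, with groups apart (0.69, SE 0.27, adjusted p = 0.330, limma). It was the 1 member (2.56%) with LPtau wholly above LP, against 9.03% of all genes. LPtau lay wholly below LP for 4 members (10.3%), against 7.09%.

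NPtau minus NP in muscle was below 0 for 26 members against 56.9% of all genes, with a median of -0.04 that became 0.02 with cyclic loess normalization. By limma 0 members were called (0%), and 0 had an unadjusted p under 0.05 against 0.484%. Cdc20, which activates the anaphase-promoting complex, read 9.51, 9.43 and 9.85 in NP and 9.52, 9.27 and 9.43 in NPtau, then 9.83, 9.35 and 9.72 in LP and 9.49, 9.08 and 9.39 in LPtau. Cdk1 read 9.51, 9.43 and 9.59 in NP and 9.27, 9.50 and 9.21 in NPtau, then 9.21, 9.33 and 9.50 in LP and 8.74, 9.35 and 9.26 in LPtau. Both overlapped between NP and NPtau (-0.19, SE 0.17 and -0.18, SE 0.16, each with an adjusted p of 1 in limma). LPtau minus NPtau was below 0 for 31 members against 47.5%, with a median of -0.21, 0 called by limma (0%) and 8 with an unadjusted p under 0.05 (5.45%). The interaction had 0 called by limma (0%) and 2 with an unadjusted p under 0.05 (6.56%), and the protein difference averaged over taurine had 0 called by limma (0.0165%) and 6 with an unadjusted p under 0.05 (10.8% of all genes). The smallest p in that average was for Ccnb2 (-0.61, SE 0.13, adjusted p = 0.183, limma).

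Other cell types also differed between the muscle groups. The mean of 15 fibre genes was -1.55, -0.81 and -1.07 on the 3 LP arrays, relative to NP, and all 15 were below 0 in LP minus NP, of which 3 fell. Fibroblast and matrix markers were at 0.73, 0.02 and 0.32 on those arrays, and endothelial markers at -0.43, -0.62 and -0.20. Myoblast and satellite cell markers (11 genes, 10 below 0) were at -0.89, 0.00 and -0.03, and erythroid markers at -0.17, 0.04 and 0.17. On LPtau replicate 1, which had the lowest member mean, endothelial markers were at -0.87 and fibroblast markers at -0.49. Their part in the cell cycle values was not tested. Of the 160 other pathway genes 0 were called by limma in muscle LP minus NP, and 97 were below 0. Among these were 36 of 39 kinetochore, spindle and cytokinesis genes (median -0.18). Over all genes 0.126% were called in this contrast and 52.4% were below 0.

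**Figure D5:**
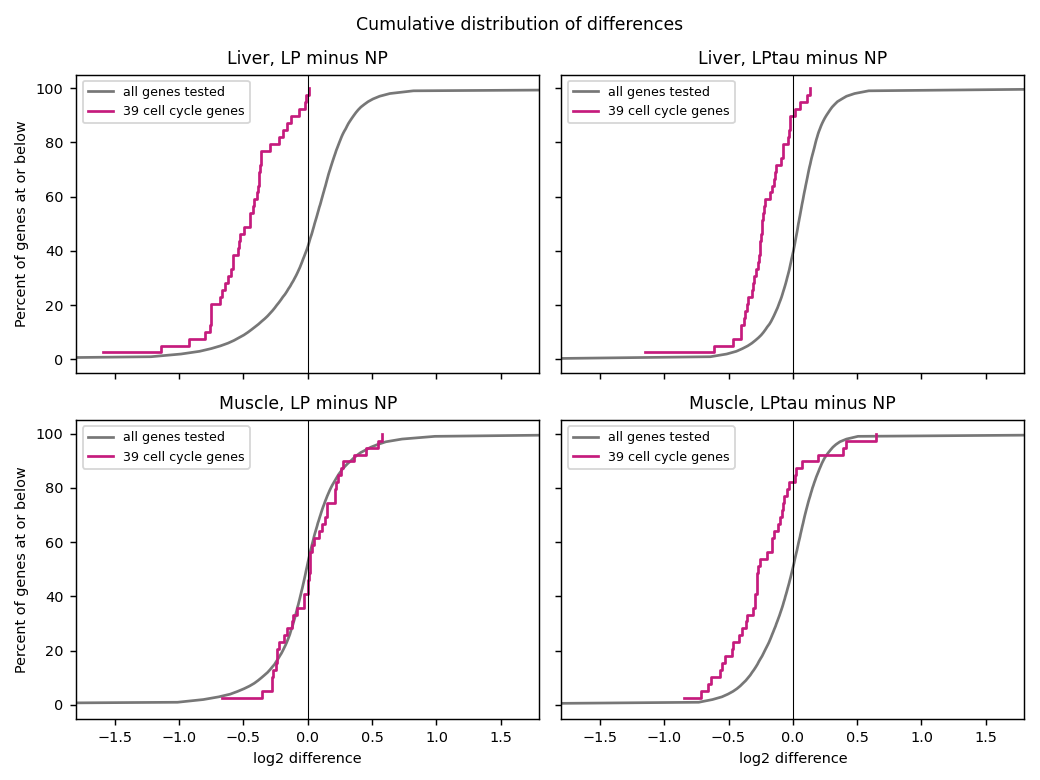
Percent of genes at or below a log2 difference (horizontal axis) for the 39 cell cycle genes and for all genes tested, in LP minus NP and LPtau minus NP of liver and muscle. In liver LP minus NP the curve of the cell cycle genes lies to the left of all genes (medians -0.45 and 0.05), and in muscle the curves cross near 0 (0.01 and -0.01).

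The difference between tissues was tested itself, as the muscle difference minus the liver difference over all 24 arrays. Each gene was read from the probe set brightest on average over all 24 arrays. For Mcm3, Rrm1 and Foxm1 the brightest probe set differed between the tissues. Their tested values therefore need not match the differences given for each tissue. Liver and muscle arrays of the same diet and number had the same sex in 12 of 12 cases, and the fit treated them as separate samples. No other setting modelled such a pairing, since the replicate block joins arrays by number alone, across diets and tissues. For LP minus NP the median of the tissue difference was 0.46. The difference was above 0 for 38 of 39 members (97.4%) against 44.4% of all genes, all but Ccnb2 (-0.24). It was called for 2 members (5.13%) against 1.97% of all genes, Mcm2 (0.90, SE 0.23, adjusted p = 0.0484, limma) and Cdk2 (0.81, SE 0.21, adjusted p = 0.0496, limma), and 10 (25.6%) had an unadjusted p under 0.05 against 17.1%. Both calls sat just under the threshold. Mcm2 kept its call in 1 of 5 other settings, the replicate block (adjusted p = 0.0499, limma), and in 3 of 12 fits with an array left out. Cdk2 lost its call in all 5, with an adjusted p of 0.0652 in limma under the replicate block, and kept it in 2 of 12 fits with an array left out. With the mean of its probe sets, which had opposite signs in both tissues, Cdk2 gave 0.20 (adjusted p = 0.419, limma). Ccne2 (1.32, SE 0.35, adjusted p = 0.0569, limma) and Rrm2 (1.11, SE 0.33, adjusted p = 0.0917, limma) did not pass. For LPtau minus LP the members lay on the other side, with 3 of 39 above 0 and a median of -0.53, but limma called 0 (0.258% of all genes) and 7 had an unadjusted p under 0.05 (14.4%). For NPtau minus NP limma called 0 members (0% of all genes) and 0 had an unadjusted p under 0.05 (1.17%).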

How the data were processed

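Total RNA of 24 samples (Trizol, biotin-labelled cRNA, Affymetrix arrays) was measured. The deposited values are log2 probe set intensities; the submitters' processing notes name RMA, R 2.7.0 and, without its role, MAS5, and say no more of how the authors made them; the table's values show that liver and muscle were normalized separately. RMA equalizes the distributions of the arrays, so a shift common to all genes would not be seen, and log2 differences of dim probe sets are compressed. Array medians were 5.36 to 5.39 in liver and 4.95 to 5.04 in muscle.

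Of 45101 probe sets 34945 carried 1 gene symbol, 932 several, 9160 none, and 64 were controls; 34741 gene identifiers were found in the RefSeq gene table of GRCm38.p6. For each tissue limma 3.58.1 in R 4.3.3 fitted the 4 diet means over 12 arrays, with 7 contrasts, Benjamini-Hochberg adjustment over 18193 genes and a threshold of 0.05; tissues were compared in one fit of 24 arrays. An exact test of 3 against 3 arrays cannot go below 0.1, so precision is limited by how few arrays there are. Replicate numbers were not used to pair samples. Across diets within a tissue, 6 of the 18 same-number pairs in each tissue had correlated deviations above 0.1. Across tissues, arrays of the same diet and number had the same sex in every case, and such a pairing was not modelled. The alternatives were a replicate block, other probe set rules, a filter on low values, other normalization and fitting options, sex, and leaving out each array.

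Members and lists were chosen with earlier results of these data known. Values per array are given for members called in any contrast, the 1 or 2 with the smallest p for liver LP minus NP in each phase, the 4 with the smallest p for muscle LP minus NP, the 2 for LPtau minus LP and NPtau minus NP in each tissue, and Cdkn1a, Cdkn1b, Mki67 and Pcna; each pathway list's called genes and its gene of smallest p in liver LP minus NP are named.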

Additional observations from a re-analysis of the deposited data

Results flagged for a closer look

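Mcm2 and Cdk2 were singled out because the test of the difference between tissues passed the threshold for their LP minus NP difference, by a narrow margin. The muscle difference minus the liver difference was 0.90 for Mcm2 (SE 0.23, adjusted p = 0.0484, limma) and 0.81 for Cdk2 (SE 0.21, adjusted p = 0.0496, limma). The LP arrays lay below the NP arrays in liver for both genes, and in muscle the LP arrays of Cdk2 lay above NP while those of Mcm2 overlapped. Neither call was stable. Mcm2 did not pass in 4 of 5 other settings (adjusted p up to 0.0848, limma) and in 9 of 12 fits with an array left out. Cdk2 did not pass in 5 of 5 and in 10 of 12, and was at 0.20 with the mean of its probe sets.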

How the results depend on the processing

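Ccne2 in liver LP minus NP was called in all 10 other settings (-1.67 to -1.49, adjusted p 0.000408 to 0.0133, limma) and with each of 6 arrays left out (adjusted p 0.00306 to 0.0479). Ccne2 has only 1 probe set. The mean of probe sets and the probe set of largest variance therefore could not change its values. The median liver LP minus NP difference was -0.54 to -0.37 over the settings, with 35 to 39 of 39 members below 0 and 21 to 31 apart, arrays left out included. Group mean differences are the same under the replicate block, the trended and robust prior and only the arrays compared. Those settings therefore do not test the median or the count below 0. The count of members called there, 1, became 2 with a replicate block, 2 with only genes above the median level, 2 with only the arrays compared, 2 with a trended and robust prior and 18 with array weights, and 1 to 3 when an array was left out (3 without LP replicate 1, Ccne2, Rrm2 and Bub1). With the replicate block Rrm2 was the added gene (adjusted p = 0.0375, limma). Averaged over taurine the liver count of 1 became 2 with the probe set of largest variance and 17 with array weights, and 1 to 4 with an array left out (4 without LPtau replicate 3); in liver LPtau minus NP array weights gave 1. Members below 0 in liver LPtau minus LP numbered 1 with the mean of probe sets, 4 with the probe set of largest variance, 7 with sex, 8 with array weights and 1 to 13 with an array left out. Cdkn1b in liver reversed to 0.10 (adjusted p = 0.907, limma) with the probe set of largest variance. In muscle array weights called 2 members in LP minus NP (Ccnb2 and Cdk2) and 1 in the average over taurine. Muscle medians with array weights and with an array left out were -0.12 and -0.38 to -0.0848 (LPtau minus LP), -0.0358 and -0.38 to -0.0191 (LPtau minus NP), and -0.0060 and -0.31 to -0.0042 (LPtau minus NPtau), with the nearest to 0 without LPtau replicate 1; the interaction gave -0.33 to -0.0659 with an array left out. Members with LPtau wholly below NP in muscle numbered 7 to 12 over 4 other settings (7 with cyclic loess) and 9 to 14 with an array left out (14 without LPtau replicate 2). Between tissues the 2 calls for LP minus NP became 1 with the replicate block, 0 with the mean of probe sets, 0 with the largest variance, 1 with genes above the median level, 0 with the trended and robust prior and 0 to 3 with an array left out. Counts below 0 and counts of groups apart under these settings were chosen after seeing the data. A count of groups apart cannot fall when an array is left out, so those ranges do not test it. For the tissue difference, sex, array weights, normalization and the arrays compared were not run. The cause of these changes was not tested.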

Other observations

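Among genes that restrain the cell cycle outside the module, limma called 0 of 15 in LP minus NP of either tissue. Of all genes it called 2.34% in liver and 0.126% in muscle. At an unadjusted p under 0.05 there were 5 of the 15 in liver, against 22.7% of all genes, and 4 in muscle, against 10.8%. In muscle 13 of 15 were below 0, against 52.4% of all genes (median -0.31), and in liver 9 of 15, against 41.5%, with list means of -0.60, 0.16 and 0.20 on the LP arrays relative to NP. Gadd45a, a stress-induced growth arrest gene, read in muscle 7.09, 6.88 and 8.06 in NP and 5.84, 6.10 and 5.98 in LP (-1.37, SE 0.45, adjusted p = 0.272, limma), with groups apart. In liver Cdkn1c, an imprinted inhibitor of cyclin-dependent kinases, read 9.63, 9.55 and 9.43 in NP and 9.37, 11.39 and 11.63 in LP (1.26, SE 0.64, adjusted p = 0.267, limma), with groups that overlapped. Trp53inp1, a target of p53, differed by -1.27 in liver (SE 0.37, adjusted p = 0.0884, limma).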
